A study of Mus musculus with 3 samples.

Results

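Genes that signal and repair DNA double-strand breaks were read in mouse long-term haematopoietic stem cells 2 hours after gamma irradiation. The set is a list of 35 gene symbols grouped by function. Of these, 32 were found among the 23185 genes with a named probe set and are called measured here. The other 3 (Xrcc2, Dclre1c and Rbbp8) have values in the deposited data. They are not analysed, because the annotation table used here gives no name to their probe sets. The cells were sorted from bone marrow for Kit, Sca and CD150 and against lineage markers, Flk2 and CD48, kept overnight in Stemspan SFEM medium, and then given 0 Gy (unirradiated), 0.02 Gy (low dose) or 2.5 Gy (high dose). Their RNA was read on Affymetrix whole-transcript arrays, 1 per dose, so the differences carry no error, replicate check or p-value. The labels give no strain, age or number of mice. The study asked for the immediate response of these cells, with the unirradiated cells as the reference.

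A double-strand break is bound within minutes by the Mre11-Rad50-Nbn complex, which activates the kinase ATM; ATR acts on stretches of single-stranded DNA. The kinases and the mediator proteins that gather on the flanking chromatin slow the cell cycle and steer the break to 1 of 2 main routes. In end joining, Ku and the DNA-dependent protein kinase hold the ends for ligation by ligase IV at any phase of the cell cycle, whereas homologous recombination copies the sister chromatid and is largely limited to S and G2. Quiescent haematopoietic stem cells are known to rely mainly on end joining. Most steps of this early response run through phosphorylation and ubiquitin marks on proteins that are already present, which RNA levels do not show.

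None of the 32 break response genes, of which 22 were past a level minimum, was 2-fold higher or lower in any comparison. Of all named genes past that minimum 4.68% were, so a count of 0 among the 22 is near the background. The p53 target genes Cdkn1a and Mdm2, read for reference, were over 2-fold higher at the high dose on the same arrays. Cdkn1a, which encodes the cell cycle inhibitor p21, was at 5.65 (unirradiated), 6.12 (low dose) and 7.30 (high dose), and Mdm2, the ubiquitin ligase of p53, at 5.29, 5.23 and 6.56, all as log2 levels. The break response genes spanned −0.67 to 0.60 for the low dose and −0.46 to 0.47 for the high dose, each less the unirradiated value, and −0.70 to 0.67 for the high less the low dose (log2 differences). A fold size of 1.5 was passed by 5 of the 32 genes in some comparison: Nbn, Trp53bp1, Rnf8, Topbp1 and Xrcc4. All 5 were among the 22 genes past the level minimum (22.7%), beside 22.4% of all genes past it. The other 27 spanned 0.04 to 0.54 between their highest and lowest array.

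Promoters are shown here for those genes of the 5 that have an entry in the RefSeq promoter table (build GRCm38.p6), as the 250 bases before the annotated start, 5′ to 3′ on the gene's own strand. The table had entries for 24 of the 32 genes, with 28 promoters in all; Nbn had none. Capitals mark matches to any of the motifs searched, on both strands: CCAAT (NF-Y box), TTTGGCGC or TTTCCCGC (E2F site), CCGGAAGT (ETS site), GGGCGG (GC box) and TGACGTCA (cAMP response element).
Trp53bp1, chr2:121271408-121271657, minus strand: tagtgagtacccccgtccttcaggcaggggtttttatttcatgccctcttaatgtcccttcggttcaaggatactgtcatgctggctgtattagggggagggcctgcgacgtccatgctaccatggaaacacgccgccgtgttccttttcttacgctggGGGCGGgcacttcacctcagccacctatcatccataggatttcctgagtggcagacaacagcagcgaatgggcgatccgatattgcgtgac
Rnf8, chr17:29614539-29614788, plus strand: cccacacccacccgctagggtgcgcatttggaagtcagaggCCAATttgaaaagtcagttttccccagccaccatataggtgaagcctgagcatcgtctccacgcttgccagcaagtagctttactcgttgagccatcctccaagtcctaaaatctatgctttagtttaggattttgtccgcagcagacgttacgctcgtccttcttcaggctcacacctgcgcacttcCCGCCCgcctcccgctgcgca
Topbp1, chr9:103305077-103305326, plus strand: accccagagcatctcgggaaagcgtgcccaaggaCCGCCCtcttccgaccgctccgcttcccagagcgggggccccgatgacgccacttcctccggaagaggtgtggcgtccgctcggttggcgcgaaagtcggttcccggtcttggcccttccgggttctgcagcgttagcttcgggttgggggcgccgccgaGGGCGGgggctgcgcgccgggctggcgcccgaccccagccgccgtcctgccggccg
Xrcc4, chr13:90089609-90089858, minus strand: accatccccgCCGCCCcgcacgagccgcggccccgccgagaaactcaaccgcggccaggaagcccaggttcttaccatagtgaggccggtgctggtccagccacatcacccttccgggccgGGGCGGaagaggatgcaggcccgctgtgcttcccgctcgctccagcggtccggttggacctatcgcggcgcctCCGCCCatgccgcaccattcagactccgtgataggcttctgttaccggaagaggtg
Each of the 4 held at least 1 GC box, and Rnf8 also held a CCAAT box. The GC box was in 67.9% of the members' promoters and in 32.7% of all 32851 promoters of that length. It was in 78.8% of those promoters that had at least 18 CpG dinucleotides, the members' median, so the share among members was not high for CpG-rich promoters. No full p53 site, searched by name with a spacer of up to 13 bases, was found in the 28 promoters, and 0.0639% of all promoters held one; this says only that its letters are not in this window.

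The E2F site, the motif of the factors that drive S phase genes, is shown for the 5 genes that held it, with its letters in capitals and up to 16 bases on either side; GCGGGAAA is TTTCCCGC read on the other strand.
Bard1, chr1:71103158-71103197, minus strand: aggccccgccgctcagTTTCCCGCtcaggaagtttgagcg
Brca2, chr5:150522437-150522476, plus strand: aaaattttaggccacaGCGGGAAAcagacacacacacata
Chek2, chr5:110839815-110839854, plus strand: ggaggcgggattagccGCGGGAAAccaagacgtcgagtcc
Mdc1, chr17:35841466-35841497, plus strand: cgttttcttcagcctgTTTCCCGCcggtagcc
Xrcc6, chr15:82016307-82016346, plus strand: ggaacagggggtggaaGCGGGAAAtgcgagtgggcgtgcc
These 5 were 17.9% of the members' promoters, against 1.30% of all promoters. Base composition differed too: the members' promoters had a median of 18 CpG dinucleotides and all promoters 6. Among the 7120 promoters with at least 18 CpG, 3.40% held an E2F site and 78.8% a GC box. That set is not matched to the members. Its medians were 24 CpG and 68.4% G plus C, beside 58.6% G plus C for the members' promoters, and Chek2, with 17 CpG, lies outside it. On the arrays the 5 genes did not share 1 pattern: Brca2, Mdc1 and Xrcc6 were highest at the low dose, and Bard1 and Chek2 at the high dose. A match to a motif is a description of letters and not a binding site.

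**Figure D1:**
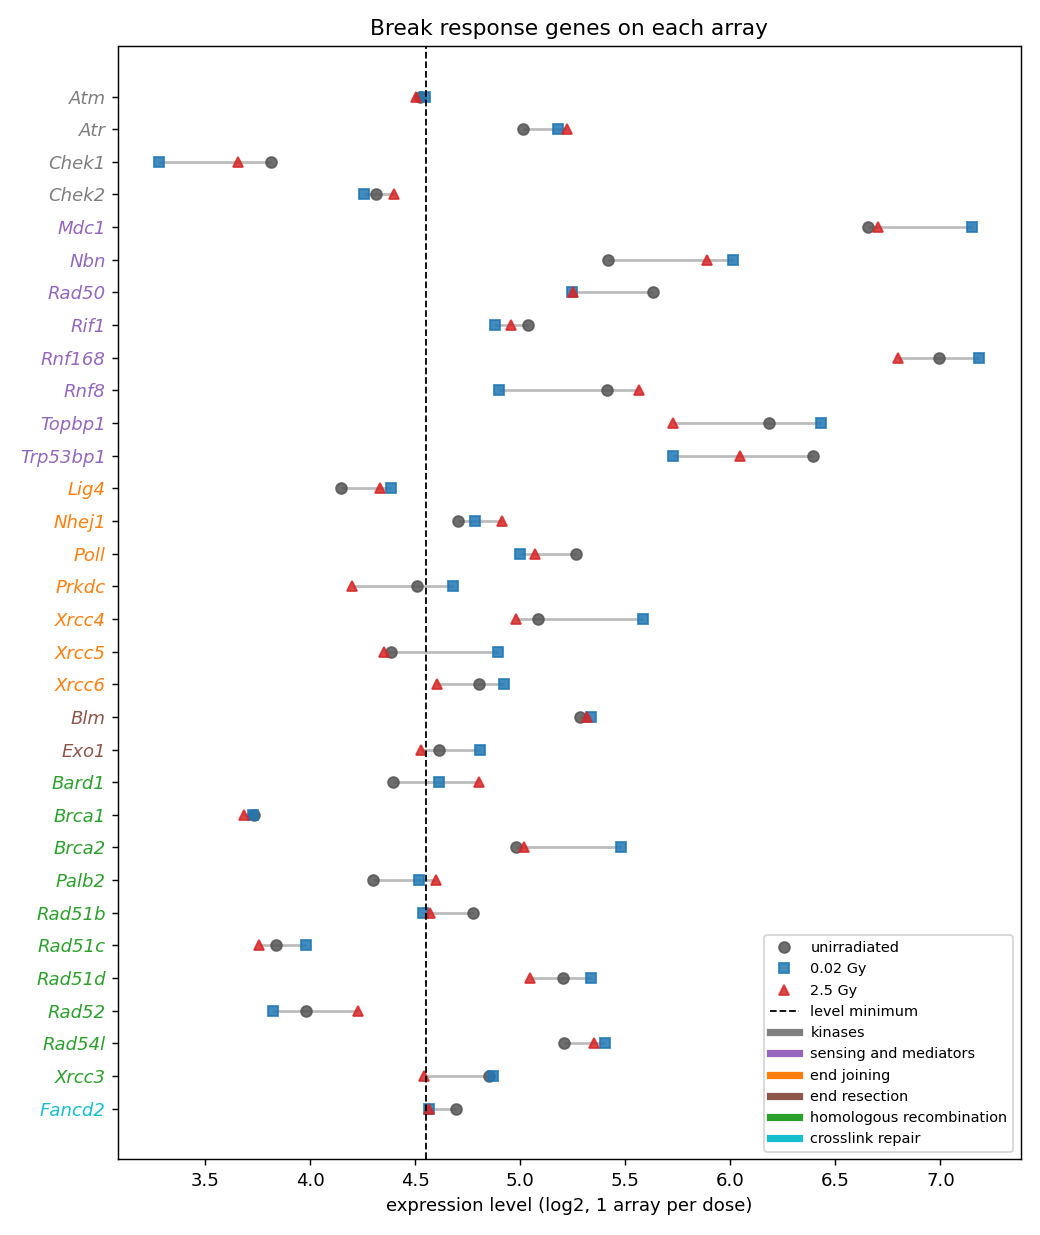
Log2 expression level (horizontal axis) of each of the 32 measured break response genes on the unirradiated (grey circles), 0.02 Gy (blue squares) and 2.5 Gy (red triangles) arrays, 1 array per dose, with gene names coloured by role. The dashed line is the level minimum of 4.55. Levels can be compared along a row but not between rows, and no row spans a log2 distance of 1.

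The levels of many of these genes were low on the arrays. Counts used a level minimum of 4.55, the median of all named genes, set on each gene's 3-array mean, and 22 of the 32 genes passed it, 18 of them on every array. Signal over background is not known for these values, so the 10 genes below it may not have been measured above background. They were Atm, Chek1, Chek2, Prkdc, Xrcc5, Lig4, Brca1, Palb2, Rad51c and Rad52. In such a bulk sample, fewer cells that transcribe a gene and less RNA per cell cannot be told apart.

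Against all genes, the counts of break response genes past a fold size were not high. At 2-fold, 0 of 22 passed in each comparison. Of all 11593 genes past the minimum, 2.47% passed for the low dose and 1.73% for the high dose, each set against unirradiated cells, and 2.5% between the doses. At 1.5-fold, 2 of 22 passed at the low dose (1 higher and 1 lower), against 12.2% of all genes. At the high dose 0 of 22 passed, against 9.51%, and between the doses 3 of 22 passed (1 higher and 2 lower), against 11.4%. Over any comparison it was 22.7% of the 22 genes and 22.4% of all genes past the minimum, so the shares lay near the background. The median distance between a gene's highest and lowest array was 0.32 for the 22 genes and 0.37 for all.

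**Figure D2:**
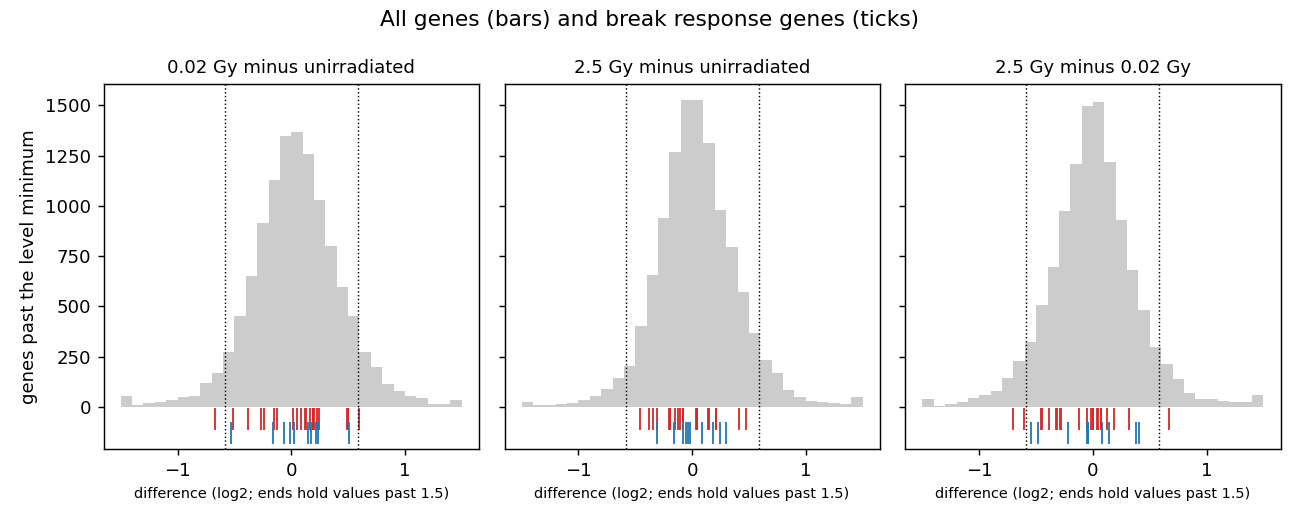
Histograms (grey bars, number of genes) of the log2 difference of all 11593 genes past the level minimum in each of the 3 comparisons, with values past 1.5 gathered in the end bars. Ticks under the bars are break response genes, red for the 22 past the minimum and blue for the 10 below it; dotted lines mark 1.5-fold, and the ticks lie within the body of the bars.

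Among the apical and checkpoint kinase genes, Chek1 differed most. Atm, the kinase called to breaks, was nearly level at 4.52 (unirradiated), 4.55 (low dose) and 4.51 (high dose). Atr, which answers single-stranded DNA, was at 5.01, 5.18 and 5.22, lowest on the unirradiated array and alike on both irradiated ones. Chek1, the effector kinase under ATR, was at 3.82, 3.28 and 3.66, highest in unirradiated cells and below the level minimum throughout. Chek2, the effector kinase under ATM, was at 4.32, 4.26 and 4.40. Only Atr of these 4 passed the minimum.

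Of the break sensor complex, Nbn was higher and Rad50 lower on both irradiated arrays. The gene of its nuclease subunit, read as Mre11a from the wider pathway list and named here after its values were seen, was at 5.28, 5.58 and 5.44, on the side of Nbn. Nbn, the subunit that brings ATM to breaks, was at 5.42 (unirradiated), 6.01 (low dose) and 5.89 (high dose). Both irradiated arrays were above the unirradiated one, by 0.60 (1.51-fold) and 0.47 respectively. Of all genes past the minimum, 11.7% and 15.8% were at least as far from 0. The low-dose difference came to 0.53 after loess scaling, which is under 1.5-fold. Rad50, the ATPase that tethers the ends, was at 5.63, 5.25 and 5.25, so both irradiated arrays were below the unirradiated one, with a difference of −0.38 each. Both differences of a gene share the 1 unirradiated array and are not independent.

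Mediator genes held the largest differences of the set, in both directions. Trp53bp1, whose protein 53BP1 shields ends from resection and favours end joining, was at 6.39, 5.73 and 6.05. It was highest in unirradiated cells and lowest at the low dose, a difference of −0.67 (1.59-fold) there and −0.35 at the high dose. Rif1, which acts with 53BP1, followed the same order within a smaller span, at 5.04, 4.88 and 4.96. Topbp1, an activator of ATR, was at 6.19, 6.43 and 5.73, and the high less the low dose came to −0.70 (1.63-fold), the widest distance of the 32 genes. Of all genes past the minimum, 7.04% were at least as far apart between the doses, and 14.3% between their highest and lowest array.

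The ubiquitin ligase genes of the same step did not share a direction. Rnf8, which lays the first ubiquitin mark at a break, was at 5.41, 4.90 and 5.57, lowest for the low dose, with the high-dose value 0.67 above that (1.59-fold). Rnf168, which extends that mark, was at 6.99, 7.19 and 6.80, highest at the low dose, but its low-dose difference of 0.19 was 0.00 after loess scaling and −0.01 after quantile normalization. Mdc1, the scaffold that recruits RNF8 to phosphorylated H2AX, was at 6.66, 7.15 and 6.70, so that the low-dose array stood apart from the other two. The Mdc1 difference of 0.49 at the low dose was 0.31 after loess scaling and 0.29 after quantile normalization. Of the 8 sensing and mediator genes, 4 were above and 4 below the unirradiated value at the low dose, and 3 above and 5 below at the high dose.

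**Figure D3:**
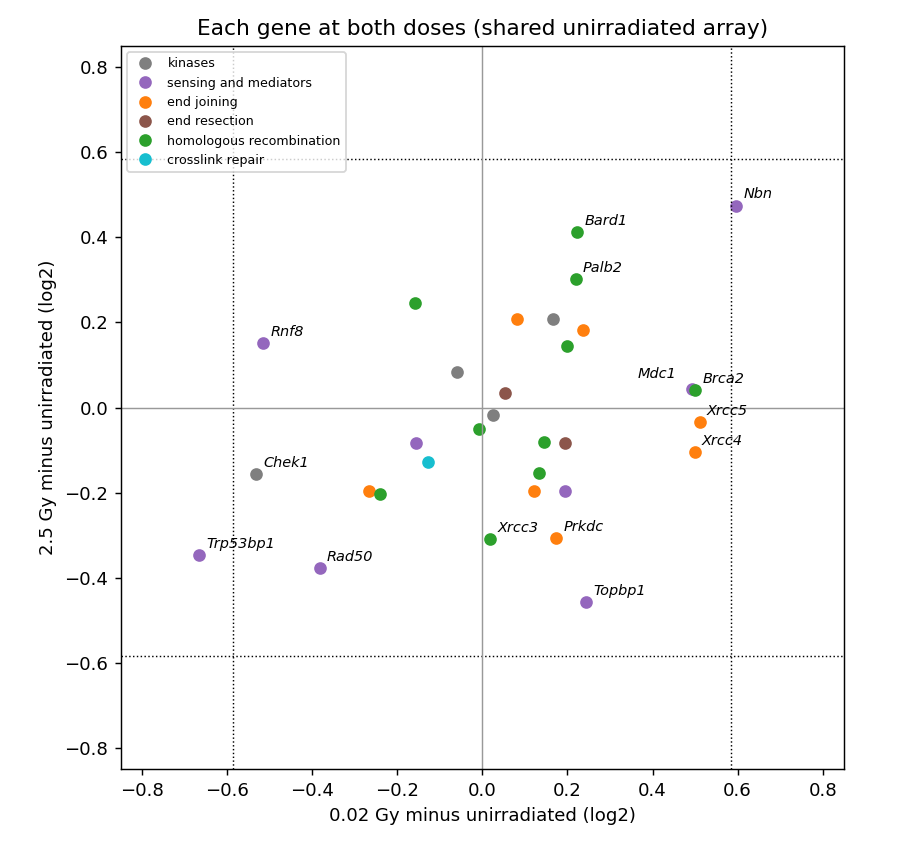
Log2 difference from the unirradiated array at 0.02 Gy (horizontal axis) and at 2.5 Gy (vertical axis) for the 32 genes, coloured by role. Both axes share 1 unirradiated array, so agreement along the diagonal is not independent; dotted lines mark 1.5-fold, which Nbn and Trp53bp1 passed at 0.02 Gy and no gene passed at 2.5 Gy.

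Of the 7 end joining genes measured, 5 had their highest value on the low-dose array (Prkdc, Xrcc4, Xrcc5, Xrcc6 and Lig4), where 33.4% of all named genes did. Prkdc, Xrcc5 and Lig4 were below the level minimum; past it, 2 of 4 were highest there, beside 37.4% of all genes. Xrcc4, the partner of ligase IV, was at 5.09, 5.58 and 4.98, and the high less the low dose came to −0.60 (1.52-fold). Xrcc5, which encodes Ku80, was at 4.38, 4.90 and 4.35, so only the low-dose array lay above the level minimum. Xrcc6, its Ku70 partner, was at 4.80, 4.92 and 4.61, in the same order with a smaller span. Prkdc, the catalytic subunit of the DNA-dependent protein kinase, was at 4.51, 4.68 and 4.20, lowest at the high dose.

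The later end joining factors were less alike. Lig4, the ligase itself, was at 4.15, 4.39 and 4.33, below the level minimum on every array. Nhej1, which encodes XLF, was at 4.70, 4.79 and 4.91, highest at the high dose. Poll, a gap-filling polymerase of the route, was the exception at the low dose: it was highest in unirradiated cells, at 5.27, with differences of −0.27 and −0.19 on the irradiated arrays.

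Of the 10 homologous recombination genes measured, 5 were highest at the low dose, beside 33.4% of all named genes. Past the level minimum 4 of 6 were, beside 37.4% of all genes. The low-dose value of the recombination genes was above the unirradiated one for 7 of 10, where 47.4% of all named genes were. Past the minimum it was above for 5 of 6, beside 3 of 4 end joining genes and 54.2% of all genes. Brca2, which loads the recombinase onto single-stranded DNA, was at 4.98, 5.48 and 5.02, a low-dose value 0.50 above the unirradiated one and a high-dose value close to it. Bard1, the partner of BRCA1 in a ubiquitin ligase, was at 4.39, 4.62 and 4.80 and differed by 0.41 at the high dose. Its unirradiated value was below the level minimum, so Bard1 passed only through its values on the irradiated arrays. Brca1 was nearly level at 3.74, 3.73 and 3.69, below the level minimum. Palb2, the bridge between BRCA1 and BRCA2, was at 4.30, 4.52 and 4.60, with the order of Bard1. Rad54l, a motor protein that helps strand invasion, was at 5.21, 5.41 and 5.35. Rad52, a strand annealing protein, was at 3.98, 3.83 and 4.23, lowest at the low dose.

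The paralogue genes of the recombinase encode proteins that form small complexes to steady its filament, and 4 were measured. Rad51b was at 4.78, 4.54 and 4.57, highest in unirradiated cells. Rad51c (3.84, 3.98 and 3.76), Rad51d (5.20, 5.34 and 5.05) and Xrcc3 (4.85, 4.87 and 4.54) all had their highest value at the low dose and their lowest at the high dose. Of the resection genes, the nuclease gene Exo1 was at 4.61, 4.81 and 4.53 and the helicase gene Blm at 5.28, 5.34 and 5.32. Fancd2, the monoubiquitinated protein of crosslink repair, was at 4.70, 4.57 and 4.57.

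Set against each other, end joining and homologous recombination differed little at the low dose. Over all measured genes of each route, the median low-dose difference was 0.17 for 7 end joining genes (6 above 0). It was 0.14 for 10 homologous recombination genes (7 above 0). All 23185 named genes had −0.02, with 47.4% above 0. At the high dose the medians were −0.10 (2 of 7 above 0) and −0.00 (5 of 10 above 0). All named genes had −0.02 there, with 46.6% above 0. Between the doses all named genes had 0.00, with 49.9% above 0. The medians of the routes were −0.32 (2 of 7 above 0) and −0.05 (4 of 10), a gap of −0.27. That gap rested on genes near or below the level minimum: over the 4 and 6 genes past it the medians were −0.12 and −0.17, and the gap was 0.05, of the opposite sign; as a difference of list means past the minimum it was −0.03. Past the minimum, the low-dose gap was −0.06, against 0.04 over all measured genes, and the high-dose gap −0.09. The low-dose gap and the gap between the doses thus have no settled sign. The gaps have no error, because each rests on single arrays, and were not tested.

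**Figure D4:**
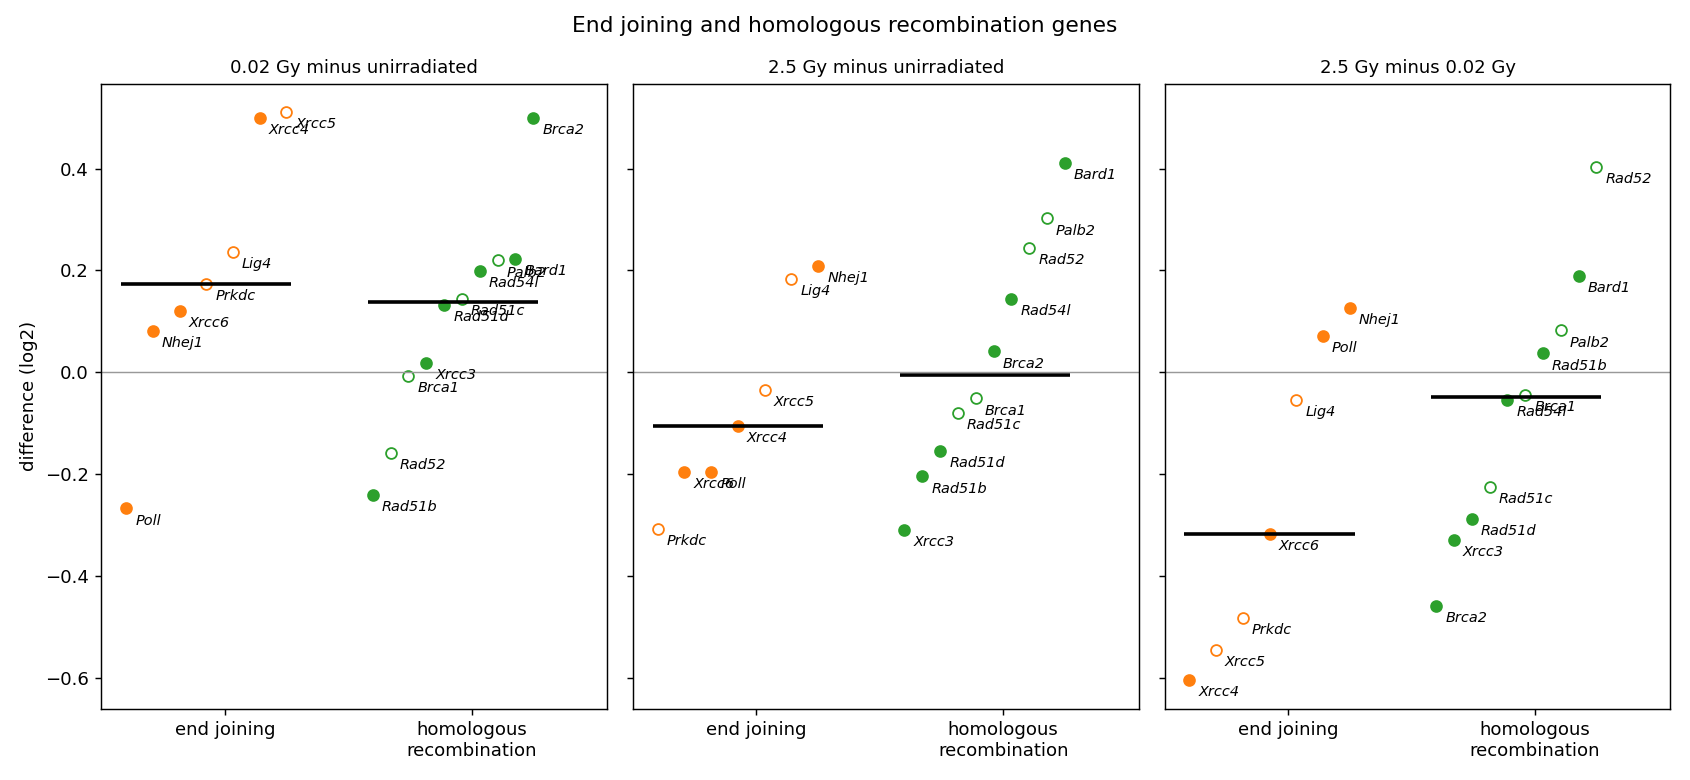
Log2 difference of each end joining (orange, 7 genes) and homologous recombination (green, 10 genes) gene in the 3 comparisons; filled points passed the level minimum, open points did not, and black bars are medians over all points of a route. The groups overlap in every panel, and the lowest points of the right panel, from 2.5 Gy minus 0.02 Gy, are the end joining genes Xrcc4, Xrcc5 and Prkdc.

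Across the set, the low-dose array was most often the highest. Of the 32 genes, 17 (53.1%) had their highest value there, 8 in unirradiated cells and 7 at the high dose, while 33.4% of all named genes were highest at the low dose. Among the 22 genes past the minimum it was 12 (54.5%), against 37.4% of all genes past it. The median low-dose difference of the 22 was 0.13, beside 0.04 for all genes, but their mean was 0.06, beside a mean of 0.04. The median high-dose difference was −0.09, beside 0.02. Lists of S phase genes and of G2 and M genes were read on the same arrays: 12 of 23 S phase genes (52.2%) and 12 of 21 G2 and M genes (57.1%) were highest at the low dose. Pcna, the replication clamp, was at 8.19, 8.76 and 8.11, and Mki67, a marker of cycling cells, at 7.23, 7.47 and 7.54. The part of cycling cells in the repair gene values was not tested.

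Further genes of the break response, outside the 35, were read from a list of 80, of which 78 were measured and 50 passed the level minimum. At 2-fold, 2 of these 50 were higher and 1 lower for the low dose, 0 for the high dose, and 1 was higher between the doses. All genes past the minimum gave 2.47%, 1.73% and 2.5% at that size. The low-dose share of the list was thus above that of all genes, but it rested on Rmi1, Shld2 and Swsap1 only. At 1.5-fold, 4 were higher and 1 lower in each comparison. That was 10% of the list beside 12.2%, 9.51% and 11.4% of all genes, so at this size the list lay near the background. Their median differences were 0.06, 0.01 and −0.06. The low-dose array was the highest for 34 of the 78 genes (43.6%), beside 33.4% of all named genes. Past the minimum it was the highest for 24 of the 50 (48%), beside 37.4% of all genes. Rmi1, a subunit of the complex that dissolves crossed strands with BLM, was at 4.81, 6.16 and 5.69, above the unirradiated value on both irradiated arrays. H2ax, the histone that is phosphorylated around a break, was at 5.03, 5.83 and 5.95 in the same direction, and Atrip, the partner of ATR, at 5.02, 5.68 and 5.93.

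Shld2 and Swsap1 differed 2-fold from unirradiated cells at the low dose, in opposite directions. Shld2, a part of the shieldin complex that acts under 53BP1, was at 4.45, 5.48 and 4.50. It was thus below the level minimum on the unirradiated and high-dose arrays and passed only through its low-dose value. Swsap1, a partner of the recombinase paralogues, was at 5.56, 4.15 and 5.21, so it was below the level minimum at the low dose. Swi5 (5.05, 5.34 and 5.81), Ercc4 (4.83, 4.55 and 5.29) and Fance (4.70, 4.52 and 5.23) were highest at the high dose. These 8 genes were named by the size of their differences, so their values describe the extremes of that list.

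The whole arrays correlated at r = 0.957 to 0.965 across all probe sets, which are not independent replicates. Differences moved with level: the median of low dose less unirradiated values went from −0.08 in decile 5 of the named genes' mean level to 0.19 in decile 10, and the 32 genes lay in deciles 3 to 10, with 2 in decile 10. Of the sort marker genes, Kit was at 8.58, 8.78 and 8.50 and Slamf1, encoding CD150, at 5.24, 4.75 and 4.84. All 8 measured stem cell sort and identity genes reached the minimum on each array, with median levels of 5.61, 5.83 and 5.78. Against unirradiated cells, 5 were higher and 2 lower at the low dose, with Hoxb5 level. At the high dose 3 were higher and 5 lower. Named after their values were seen, Mecom (5.73, 6.22 and 6.12) and Hlf (7.21, 7.62 and 7.88) were higher on both irradiated arrays. Slamf1 and Procr (5.50, 5.45 and 5.43) were lower on both. Cd48 was below the level minimum on all arrays, while Flt3, which encodes Flk2 and was selected against, was above it at 4.60, 4.95 and 4.93. Of 4 T cell markers, 0, 1 and 0 were at or above the minimum on the 3 arrays, of 3 B cell markers 1 on each, of 3 erythroid markers 2 on each, and of 4 megakaryocyte markers 4, 4 and 3. All 5 measured myeloid markers were above it, with median levels of 5.29, 5.89 and 5.99. S100a8 (5.57, 6.87 and 6.81) and S100a9 (6.82, 7.94 and 8.38), picked from that list after their values were seen, were higher on both irradiated arrays. The other 3 were Mpo (5.29, 5.45 and 5.99), Elane (4.96, 5.89 and 5.08) and Csf1r (4.85, 4.58 and 5.03), which did not share 1 order. The part of such cells in the repair gene values was not tested.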

How the data were processed

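The authors deposited a table of log2 values for 3 arrays, with 25206 rows, each a probe set carrying an Entrez gene number. The log2 scale was read from the values (1.55 to 12.4). Partek is named without a role, per the submitters' processing notes; how background and normalization were handled is not given in the sources used here. Array medians were 4.60, 4.54 and 4.55. Genes were named from the platform annotation table; 23185 probe sets had 1 symbol. The members and lists were chosen with earlier results of these data known. All 35 members, the 4 genes of the wider pathway list past the level minimum with the largest difference in each comparison, and 8 p53 target, sort marker and cycling genes are named by rule.

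Differences were taken per gene between arrays, with no test, since each dose has 1 array. Genes with a mean of at least 4.55 (the 50th percentile) were counted at 2-fold and 1.5-fold. Alternatives were a minimum at the 75th percentile or none, loess (span 0.3), median centring, quantile normalization, list means and a wider homologous recombination list, in Python 3.11.15 with pandas 2.3.3 and statsmodels 0.14.6. The 2-fold count was tried on simulated data with large seeded differences, for the high dose against unirradiated cells only. The 1.5-fold counts, list medians and gaps were not tried in this way. Promoter sequences came from RefSeq (GRCm38.p6).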

Additional observations from a re-analysis of the deposited data

How the results depend on the processing

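No paired analysis was possible because the labels number no replicates, there being a single array at each dose. List values were compared within a log2 tolerance of 0.1 and counts within 1.5 times. Without the level minimum, the high dose minus low dose median of end joining genes was −0.32, that of homologous recombination genes −0.049 and the gap −0.27; these differ from the values past the minimum because more genes enter. With the minimum at the 75th percentile, 5 members remained, with medians of 0.24 (low dose), −0.19 (high dose) and −0.39 (high dose minus low dose). All genes past that minimum had medians of 0.11, 0.08 and −0.02. Between the doses 1 of the 5 members was past 1.5-fold, beside 12.4% of all genes. There were 0 end joining genes past the 75th percentile, so the gap had no value there. The count past 1.5-fold at the low dose was 1 after quantile normalization and 1 after loess, where Nbn fell under that size. Of 120 alternatives of list values and counts, the other 111 kept within tolerance, but the tolerance is as large as many of these values and says nothing about their sign. Of these 111, 5 took the other sign. Among them the low-dose gap was 0.04 with no minimum and the gap between the doses −0.03 as list means, and the others were high-dose medians of the wider pathway list (−0.02 with no minimum, −0.02 after quantile normalization and −0.02 after loess). Of the 32 genes, 17 to 18 were highest on the low-dose array under quantile normalization, median centring and loess, alternatives chosen after seeing the data for that count. Under these scalings, at most 4 members took the other sign in a comparison. Signal over background is not known, which limits every value near or below the level minimum.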
